A study of Zea mays with 8 samples.

Results

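The aleurone was compared with the starchy endosperm at 18 days after pollination (DAP) in maize kernels of the inbred B73. The comparison used 4 of the 8 libraries of the series, which were 2 biological replicates of aleurone and 2 of starchy endosperm, and it covered 19058 tested genes of 39475 listed. The other 4 libraries came from the same tissues at 22 DAP. All groups shared the B73 genotype and greenhouse growth without a treatment. Per the labels' protocols, kernels from 2 replicate plants were frozen, peeled mechanically after thawing and rinsed, so each library holds the RNA of a dissected tissue and not of sorted cells, and RNA integrity was checked in 1 of each replicate pair. The labels do not say how many kernels went into a library, and p-values measure the spread between these samples only.

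The aleurone is the outermost cell layer of the endosperm. Its cells stay alive in the dry seed, where they store oil, globulins and phytate, and they secrete enzymes at germination. The starchy endosperm fills with starch and with zeins, the prolamin storage proteins of maize, in bodies inside the endoplasmic reticulum, and its cells die as the kernel matures. Because oleosins, zeins and starch synthesis genes are the textbook difference between these tissues, they were set aside and the remaining genes are described here.

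Levels are given as TPM, a relative transcript abundance corrected for gene length and summed to the same total in every library, always for replicate 1 and then replicate 2. Fold changes are log2 ratios of aleurone over starchy endosperm from edgeR's quasi-likelihood test on counts scaled by TMM (the trimmed mean of M values), with their standard error (SE). Genes count as called below 0.05 after Benjamini-Hochberg adjustment over all tested genes, and only called genes are said to be higher or lower. The TMM factors of the aleurone libraries were higher than those of the starchy endosperm libraries, so that a gene with an equal share of reads in both tissues has a log2 fold change of -1.67, and a gene with equal TPM can be called lower. In bulk tissue, fewer cells that express a gene and less RNA per cell cannot be told apart.

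Total counts were 2944720 and 5991340 in aleurone and 3185942 and 11529168 in starchy endosperm. The named zeins took 7.94% and 8.97% of counts in the aleurone peels, against 56.4% and 59.8% in starchy endosperm, so zein RNA was present in the peels, and its part in the results was not tested. The markers fixed for aleurone summed to 17541 and 34477 TPM in aleurone and 19.1 and 21.8 TPM in starchy endosperm, and those of starchy endosperm summed to 12105 and 10265 TPM against 69420 and 65920 TPM. By these sums both labels matched their markers, but plt1 alone gave 14636 and 28034 TPM of the aleurone sum. Of the 5 aleurone markers 1 had no count in the 4 libraries, and of the 4 tested 3 were called higher. Of the 8 starchy endosperm markers 7 were called lower in aleurone and 1 was not called. In TPM both aleurone libraries lay below both starchy endosperm libraries for 6 of the 8 and above them for 1. Markers of the embryo surrounding region were at 0 in all 4 libraries, and the 10 of the basal transfer layer reached a sum of 1.10 and 0 TPM in aleurone and 0 in starchy endosperm. The 8 embryo markers summed to 518 and 1834 TPM in aleurone and 28.9 and 63.1 TPM in starchy endosperm. Without the globulin gene glb1, which the aleurone also expresses, these sums were 48.8 and 87.4 TPM against 28.4 and 62.2 TPM, and kn1, lec1 and wox5B were at 0. For the maternal pericarp, 11 floral regulators were taken as markers, with sums of 73.6 and 37.0 TPM in aleurone against 0.89 and 0 TPM in starchy endosperm, and their part in the results was not tested.

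At 18 DAP 230 genes (1.21% of those tested) were higher in aleurone and 165 (0.866%) were lower, 395 in all (2.07%). The 230 genes held 117852 and 194297 TPM of the aleurone libraries and 737 and 801 TPM of the starchy endosperm libraries. The 165 genes held 145636 and 119096 TPM in aleurone and 793192 and 676178 TPM in starchy endosperm, and still 42543 and 34676 TPM against 227241 and 193687 TPM once zein and starch genes were left out. Of the 230, 54 had no count in either starchy endosperm library, 111 had at most 3 over both and 119 had more. Over all tested genes 11.5% had no count there and 20.2% at most 3. On the lower side none of the 165 had 3 or fewer counts in aleurone. All 230 had both aleurone libraries above both starchy endosperm libraries in TPM, as did 79.8% of all tested genes. Of the 165, 137 had both aleurone libraries below both starchy endosperm libraries, as did 2.68% of all tested genes.

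The number of calls rested on single libraries. It was 11 higher and 36 lower without starchy endosperm replicate 2, the deepest library, 101 and 69 without starchy endosperm replicate 1, and 92 and 50 without aleurone replicate 2. Without aleurone replicate 1 the counts were 278 and 107. The libraries of 22 DAP enter the shared estimate of the spread: the counts were 301 and 278 without aleurone replicate 1 of that age, 225 and 253 without aleurone replicate 2, 1127 and 522 without starchy endosperm replicate 1, 1093 and 524 without replicate 2, and 1036 and 462 without both of these. With the replicate number as a block, 359 genes were higher and 449 lower, and 388 of the 395 were among them; block values stand beside most of the genes and lists below whose call or count they change, and genes that only the block called were chosen after their values were seen. Scaled by library size alone, 1281 genes were higher and 51 lower, and the median log2 fold change of all tested genes moved from 0.47 to 2.14. Names were known for 68 of the called genes outside the set-aside classes, 47 higher and 21 lower. No sign of these 68 turned in any alternative, but only 5 stayed called whichever library of 18 DAP was left out: fps1, fl3, gpc3, gpc4 and nac4. A further 11 lost the call without 1 of the 4 libraries, which was starchy endosperm replicate 2 for HDZIV8_OCL8, asn2, prp2, plt1, DEF1, vpe1, rf2, NRP1, FL1 and Bk2L6 and aleurone replicate 2 for GPDH1. The calls of the other 52 were lost without at least 2 of these libraries, each left out in turn.

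**Figure D1:**
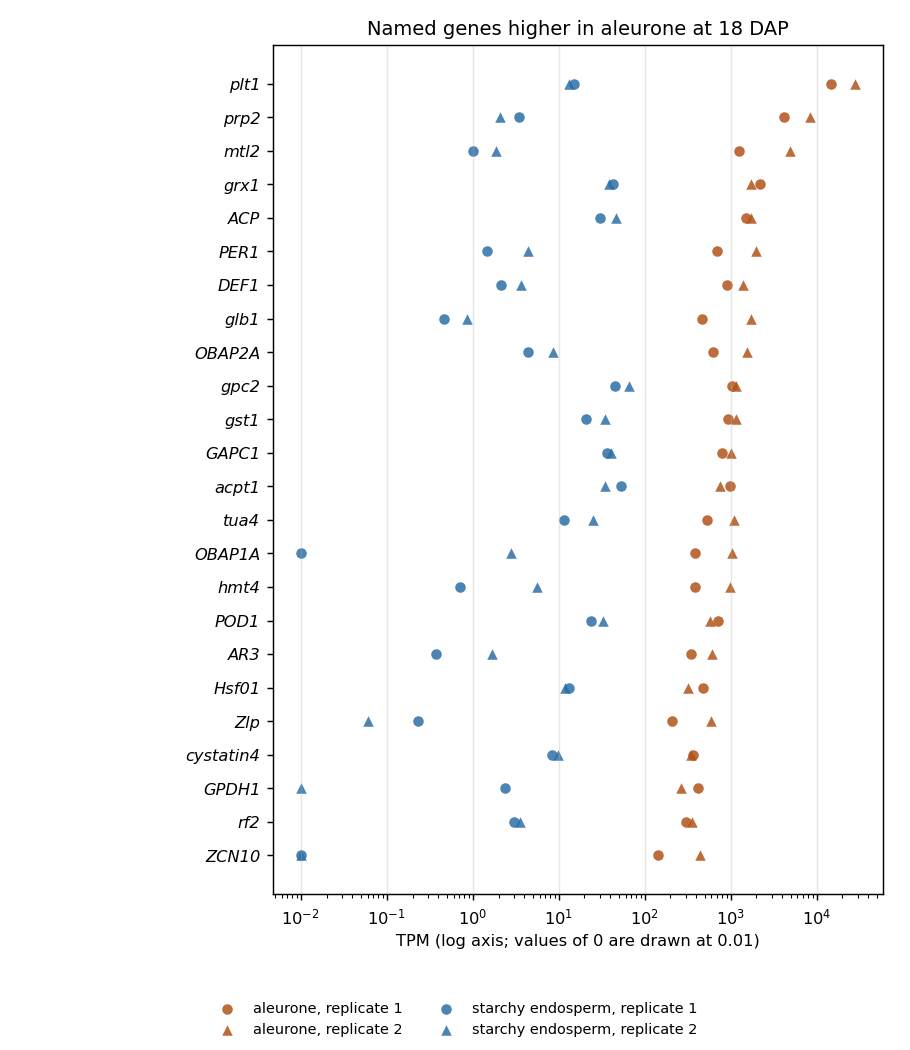
TPM on a log axis of the 24 named genes of highest mean level among those called higher in aleurone at 18 DAP, with aleurone in orange, starchy endosperm in blue, circles for replicate 1 and triangles for replicate 2, and values of 0 drawn at 0.01. In every row both aleurone libraries stand to the right of both starchy endosperm libraries, from plt1 at 14636 and 28034 TPM down to ZCN10 at 145 and 436 TPM against 0.

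Transcription factors of outer cell layers were among the genes nearly silent in starchy endosperm. The HD-ZIP IV factors are homeodomain proteins of the plant epidermis, and the maize OCL genes are named for the outer cell layer. The gene ocl1 (GRMZM2G026643) had 21.1 and 43.1 TPM in aleurone and 0 and 0.02 TPM in starchy endosperm, a ratio of TMM-scaled counts of 490.5 (95% interval 87.8 to 19394, adjusted p = 0.0163). Its relative ocl5 (GRMZM2G130442) had 16.6 and 24.4 TPM in aleurone and no count in starchy endosperm, at least 92.2-fold higher against 3 counts over the group (adjusted p = 0.0446). HDZIV8_OCL8 (GRMZM2G122897), with 34 and 42.7 TPM, also had no count there, a difference of at least 155-fold (adjusted p = 0.0104). For each of them both aleurone libraries lay above both starchy endosperm libraries. The HD-ZIP IV list summed to 0.27 and 0.05 TPM in starchy endosperm, so its genes passed the filter on low counts only through aleurone. Their positive signs followed from that, and a median against almost no counts has no measured size. Of 5 HD-ZIP IV genes tested, ocl1, ocl5 and HDZIV8_OCL8 were called higher and none lower, with a list median of 8.61 beside 0.47 over all tested genes. The others had low or few reads: HDZIV6_OCL6 had 16.1 and 14.3 TPM against 0 and 0.03 (adjusted p = 0.0651) and ocl4 had 2.31 and 0.68 TPM against 0 (adjusted p = 0.308). The counts of this and the other lists stand beside the background of 1.21% of tested genes higher and 0.866% lower.

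AD1 (GRMZM2G167438), a ketoacyl-CoA synthase of cuticular wax synthesis, was higher, with 49.0 and 47.4 TPM in aleurone and 0.12 and 0.03 TPM in starchy endosperm. Its ratio of scaled counts was 214 (95% interval 59.1 to 1772, adjusted p = 0.0118), and the aleurone replicates were nearly equal. The lipid transfer protein gene plt1 (GRMZM2G101958) was the most abundant named gene of the higher side, at 14636 and 28034 TPM against 15.1 and 13.2 TPM, and the log2 fold change was 8.53, SE 0.83 (adjusted p = 0.00217). Its relative plt2, at 12.3 and 27 TPM against 0, did not pass (adjusted p = 0.0714). The beta-expansin expB3, a wall-loosening protein, had 30.6 and 50.3 TPM against 0 and 0.06 TPM (ratio 226, 95% interval 40.3 to 8933, adjusted p = 0.0281). It was the 1 called gene of 20 tested in the cell wall list, whose median was 1.33. The cinnamoyl-CoA reductase gene cncr1, which acts at the entry to lignin monomers, had 35.1 and 61.1 TPM against 0 and 0.09 TPM (ratio 342, 95% interval 61.2 to 13536, adjusted p = 0.0475), while none of 16 anthocyanin and phenylpropanoid genes of the fixed list was called. YAB5 (GRMZM2G116646), a YABBY transcription factor of a family known from the polarity of leaves, had 74.4 and 57.5 TPM and no count in starchy endosperm. It was at least 93.6-fold higher (adjusted p = 0.0176), and its aleurone libraries were of similar height.

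Of the amide synthesis genes, asn2 and gln5 were higher in aleurone. The asparagine synthetase gene asn2 (GRMZM2G093175) had 168 and 192 TPM in aleurone and 0.12 and 0 TPM in starchy endosperm. Both aleurone libraries were alike and starchy endosperm held 1 count in all, which gave a ratio of 1643 (95% interval 295 to 64918, adjusted p = 0.00638). The glutamine synthetase gene gln5 (GRMZM2G036464) had 93.4 and 198 TPM against 0.54 and 0.05 TPM, log2 fold change 7.36, SE 1.46 (adjusted p = 0.0417), and was not called with the replicate block (adjusted p = 0.0581). A further glutamine synthetase gene, gln4, had 103 and 247 TPM against 0.59 and 1.06 TPM and did not pass (adjusted p = 0.0779). The lysine-degrading enzyme gene lkrsdh1 was present in both tissues, at 824 and 605 TPM against 59.2 and 38.6 TPM (log2 fold change 1.83, SE 0.49, adjusted p = 0.111), and was called higher with the replicate block (adjusted p = 0.0138). Of 12 amino acid metabolism genes tested, asn2 and gln5 were higher, none was lower and 10 did not pass, with a median of 2.45. With the block asn2 and lkrsdh1 were the 2 called. Outside the list, hmt4 (GRMZM2G039166), a homocysteine methyltransferase that forms methionine, had 386 and 989.8 TPM against 0.71 and 5.59 TPM, and the log2 fold change was 5.66, SE 1.15 (adjusted p = 0.0446). Its aleurone replicate 2 was well above replicate 1, and both were far above starchy endosperm.

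Among storage protein and protease genes, glb1 and vpe1 were higher in aleurone. The globulin gene glb1 (GRMZM2G067919), which encodes a storage protein of the embryo and aleurone, had 469.6 and 1747 TPM in aleurone and 0.47 and 0.87 TPM in starchy endosperm, and the log2 fold change was 8.10, SE 1.23 (adjusted p = 0.0135). The other members of the storage protein list did not pass without the replicate block: leg1, a legumin gene, had 286 and 493 TPM against 541 and 1492 TPM (log2 fold change -3.43, SE 0.76, adjusted p = 0.0606) and glb3 had 137 and 548 TPM against 330.4 and 2157 TPM (adjusted p = 0.216), with replicates that differed several-fold. With the block both were called lower in aleurone (adjusted p = 0.000612 and 0.00044). The list of 4 had a median of -1.95. The vacuolar processing enzyme gene vpe1 (GRMZM2G463291), a protease that matures storage proteins, had 196 and 154 TPM against 0.38 and 0.59 TPM, and the log2 fold change was 6.29, SE 0.62 (adjusted p = 0.00229). It was the 1 called gene of 7 proteases, whose median was 5.58. All 7 had positive log2 fold changes, as did 11728 of all 19058 tested genes.

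DEF1 and Zlp, defense genes by name, were higher in the peels. DEF1 (GRMZM2G153488), a defensin by its symbol only and paired with 2 reference genes, had 904 and 1383 TPM against 2.15 and 3.64 TPM (log2 fold change 6.59, SE 0.73, adjusted p = 0.00365). The zeamatin-like gene Zlp, of a family of antifungal proteins, had 206 and 590.2 TPM against 0.23 and 0.06 TPM (ratio 1127, 95% interval 312 to 9306, adjusted p = 0.0117). Of the same list, the ribosome-inactivating protein gene rip1 (GRMZM2G063536) had 95.3 and 139 TPM against 96.5 and 216 TPM. It did not pass (log2 fold change -2.47, adjusted p = 0.103), but was called lower with the replicate block (adjusted p = 0.00857). Another gene of that name, RIP1 (GRMZM2G052546), had the opposite sign and did not pass (log2 fold change 1.66, adjusted p = 0.375). Of the cystatins, inhibitors of cysteine proteases, 2 were called in opposite directions. The gene cystatin4 had 364 and 350.4 TPM in aleurone and 8.27 and 9.75 TPM in starchy endosperm (log2 fold change 3.20, SE 0.61, adjusted p = 0.036), whereas cystatin6 had 8.78 and 3.98 TPM against 30.6 and 148 TPM (log2 fold change -5.98, SE 0.99, adjusted p = 0.0185). These were the 2 called genes of 9 inhibitors, and the starchy endosperm libraries of cystatin6 differed several-fold from each other. The subtilisin-chymotrypsin inhibitor gene sci1, among the most abundant named genes of aleurone at 4704 and 6750.3 TPM, had 432 and 923 TPM in starchy endosperm and did not pass (log2 fold change 0.94, SE 0.83, adjusted p = 0.695). With the replicate block it was called higher (adjusted p = 0.0383). Among the most abundant named genes of aleurone were also prp2 and mtl2: prp2 (GRMZM2G102356) had 4231 and 8309 TPM against 3.47 and 2.07 TPM (log2 fold change 9.17, SE 0.95, adjusted p = 0.0025) and mtl2 (GRMZM2G402564) had 1259 and 4977 TPM against 1.0 and 1.85 TPM (log2 fold change 8.98, SE 1.31, adjusted p = 0.0119).

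The list of abscisic acid response and desiccation genes summed to 0.78 and 1.63 TPM in starchy endosperm, so few reads that a lower call was hardly possible. Of its 6 tested genes, with a median of 6.51, none was lower and 3 were higher in aleurone. They were vp1 (GRMZM2G133398), a B3-domain regulator of seed maturation with 34.1 and 47.7 TPM against 0, the dehydrin gene dhn1 with 46.4 and 66.3 TPM against 0.34 and 0.05 TPM, and mlg3, a late embryogenesis abundant protein gene with 102 and 162 TPM against 0 and 0.08 TPM. The first was at least 131-fold higher (adjusted p = 0.0409), dhn1 showed a scaled count ratio of 131 (95% interval 44.5 to 635, adjusted p = 0.0394) and mlg3 one of 539 (95% interval 96.6 to 21318, adjusted p = 0.0138). For each of them replicate 2 was the higher aleurone library. Redox enzymes were also found on this side. PER1 (GRMZM2G129761), a peroxiredoxin of dormant seed tissue, had 700.0 and 1969 TPM against 1.46 and 4.46 TPM (log2 fold change 6.74, SE 1.07, adjusted p = 0.0158), and the glutathione transferase gene gst1 had 939 and 1164 TPM against 20.8 and 34.2 TPM (log2 fold change 3.18, SE 0.51, adjusted p = 0.0171). They were 2 of 29 redox and detoxification genes tested, whose median was 2.58. Of the 29, 26 had a positive log2 fold change, beside 11728 of all 19058 tested genes. With the replicate block 5 of the 29 were called higher, with sod3, gst30 and gst3a added. The glutaredoxin gene grx1 had 2225 and 1730.2 TPM against 42.5 and 38.3 TPM (log2 fold change 3.49, SE 0.48, adjusted p = 0.00918), and rf2, a mitochondrial aldehyde dehydrogenase known as a restorer of male fertility, had 306 and 353 TPM against 3.01 and 3.54 TPM (log2 fold change 4.57, SE 0.50, adjusted p = 0.00329). The replicates of rf2 lay close together in both tissues.

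The factors bZIP7 and Hsf01, a leucine zipper and a heat shock transcription factor by name, were the called members of their lists. bZIP7 had 115 and 257 TPM against 0.15 and 0.5 TPM (log2 fold change 6.92, SE 1.02, adjusted p = 0.012). It was 1 of 26 tested in the bZIP list, which was matched by symbol and does not include o2. Hsf01, paired with 2 reference genes, had 478 and 319 TPM against 13.2 and 11.9 TPM (log2 fold change 3.01, SE 0.59, adjusted p = 0.04), as 1 of 22 heat shock genes. With the replicate block the bZIP list had 2 genes higher (OBF1 added) and 1 lower (lip15), and the heat shock list 1 higher and 2 lower (hsp18c and hsp70-4). The small heat shock gene hsp18c did not pass, at 7.22 and 26.4 TPM against 56.1 and 175 TPM (adjusted p = 0.0535), but was called lower with the block (adjusted p = 0.00252). The PEBP family, relatives of the flowering signal FT, had 2 of 5 tested genes called. Both carry the name ZCN10: GRMZM2G152689 had 145 and 436 TPM and GRMZM2G059358 had 119.5 and 353 TPM in aleurone, and neither had a count in starchy endosperm. They were at least 391-fold and 325-fold higher (adjusted p = 0.0301 and 0.0282). Near-identical copies could share reads, so their separate values are uncertain.

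The genes ACP, acpt1, ACC1, fad7, OBAP1A and OBAP2A were also called higher in aleurone. The reference names ACP (GRMZM2G091715) and acpt1 (GRMZM2G175818) both refer to the acyl carrier protein, on which fatty acids are built. ACP had 1526 and 1718 TPM against 30.4 and 46.0 TPM (log2 fold change 3.29, SE 0.43, adjusted p = 0.00777) and acpt1 had 989 and 744 TPM against 53.1 and 34.5 TPM (log2 fold change 2.21, SE 0.38, adjusted p = 0.0234). The acetyl-CoA carboxylase gene ACC1, for the first committed step of fatty acid synthesis, had 209 and 107 TPM against 5.65 and 3.59 TPM (log2 fold change 2.95, SE 0.49, adjusted p = 0.0182), and the plastid fatty acid desaturase gene fad7 had 228 and 189.9 TPM against 0.64 and 0 TPM (ratio 467, 95% interval 129 to 3861, adjusted p = 0.0233). In both, replicate 1 was the higher library in each tissue. These 2 were the called genes of 8 tested for lipid synthesis and breakdown. The acyltransferase gene DGAT1-2, of the last step of oil synthesis, had 103 and 77.1 TPM against 0.57 and 0 TPM and missed the threshold (adjusted p = 0.0592). The oil body associated proteins OBAP1A and OBAP2A are not oleosins. OBAP1A had 382 and 1039 TPM in aleurone and 0 and 2.79 TPM in starchy endosperm (log2 fold change 6.74, SE 1.40, adjusted p = 0.0494). OBAP2A had 624 and 1553 TPM against 4.4 and 8.63 TPM (log2 fold change 5.34, SE 0.93, adjusted p = 0.0247), and both stood apart between the tissues.

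The phosphoenolpyruvate/phosphate translocator gene ppt1 had 224 and 132 TPM against 5.68 and 4.22 TPM (log2 fold change 3.03, SE 0.45, adjusted p = 0.0127), and the malic enzyme gene me4 had 45.5 and 41.4 TPM against 0.12 and 0 TPM (ratio 394, 95% interval 70.4 to 15565, adjusted p = 0.0443), not called with the replicate block (adjusted p = 0.0508). The dxs2 gene, of the first step of the plastid isoprenoid pathway, had 29.5 and 61.7 TPM and no count in starchy endosperm (at least 191-fold higher, adjusted p = 0.0248), and it was the 1 called gene of 15 in the isoprenoid and carotenoid list, where the replicate block called 1 further gene, BCH2, lower. The allene oxide cyclase gene aoc1, of jasmonate synthesis, had 165 and 356 TPM against 0.63 and 0.08 TPM (log2 fold change 8.12, SE 1.52, adjusted p = 0.0326). It was the 1 called gene of 22 in the jasmonate and lipoxygenase list, whose median was 5.39. Without a role assigned here, GPDH1 (GRMZM2G155348) had 420.3 and 264 TPM against 2.36 and 0 TPM (log2 fold change 6.82, SE 1.35, adjusted p = 0.0414). Of the other named higher genes, the alpha-tubulin gene tua4 had 531 and 1090.4 TPM against 11.5 and 25.0 TPM (adjusted p = 0.0424), POD1 had 708 and 581 TPM against 23.6 and 33.0 TPM (adjusted p = 0.0209), AR3, paired with 2 reference genes, had 349 and 605 TPM against 0.37 and 1.66 TPM (adjusted p = 0.00988), and AR4 had 51.5 and 69.3 TPM against 0 (at least 114-fold higher, adjusted p = 0.0358). The 4 phytate genes showed no call. Of them GRMZM2G155242, listed as lpa1 after a low phytic acid mutant, had 201 and 229 TPM against 1.98 and 1.96 TPM and missed the threshold (log2 fold change 4.88, SE 1.04, adjusted p = 0.0533). Another gene listed as lpa1, GRMZM5G820122, did not pass either (log2 fold change 3.36, adjusted p = 0.482).

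The cytosolic glyceraldehyde-3-phosphate dehydrogenase genes, for 1 step of glycolysis, divided between the tissues. GAPC1 had 805 and 1013 TPM in aleurone and 36.6 and 40.5 TPM in starchy endosperm (log2 fold change 2.52, SE 0.46, adjusted p = 0.0303), and gpc2 had 1029 and 1145 TPM against 45.8 and 66.1 TPM (log2 fold change 2.16, SE 0.42, adjusted p = 0.0385). In the other direction gpc3 (GRMZM2G071630) had 86.5 and 86.9 TPM against 468 and 384 TPM (log2 fold change -4.43, SE 0.51, adjusted p = 0.00425) and gpc4 (GRMZM2G176307) had 108 and 70.2 TPM against 437 and 472 TPM (log2 fold change -4.48, SE 0.36, adjusted p = 0.00189). No library of 1 tissue reached the other tissue's range in any of the 4, and reads of such close paralogs can be split between them in counting. They were the 4 called genes of 20 in the glycolysis, fermentation and pyruvate list, whose median was -0.17. With the replicate block 3 genes of the list were higher and 6 lower. The pyruvate orthophosphate dikinase gene CYPPDKZM2 did not pass and was among the most abundant named genes of both tissues, at 5684 and 5411 TPM against 1257 and 1428 TPM, and the log2 fold change was -0.03, SE 0.35 (adjusted p = 0.995).

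**Figure D2:**
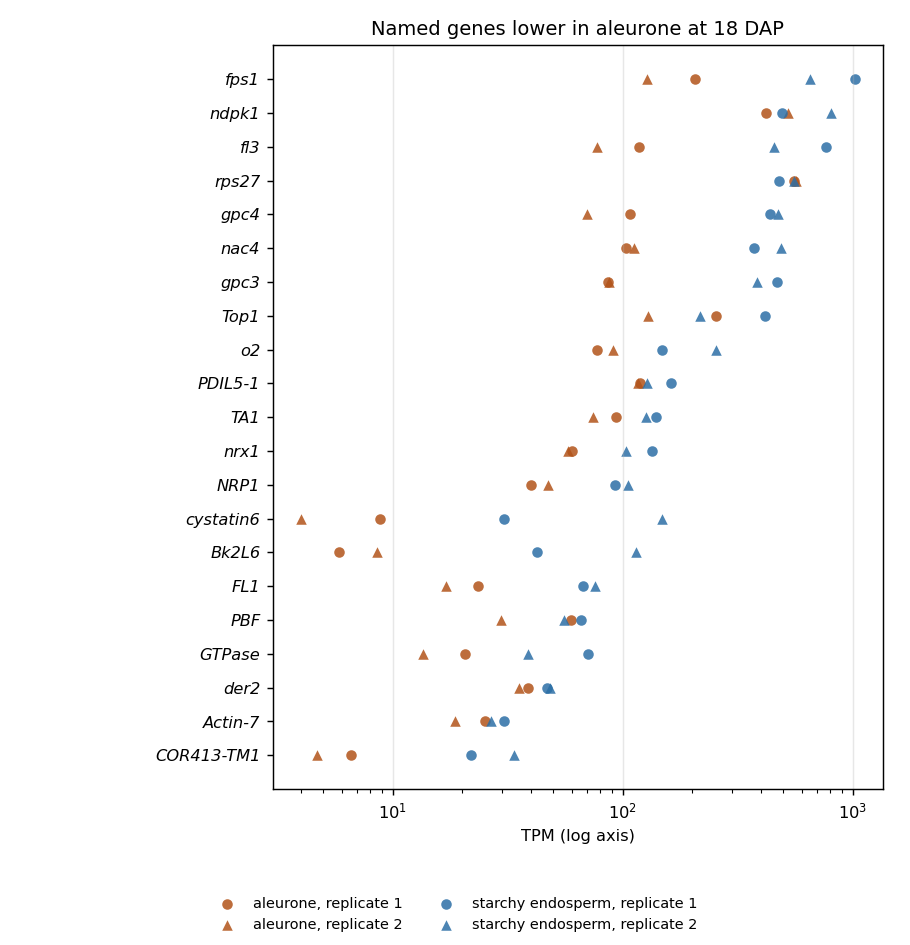
TPM on a log axis of the 21 named genes called lower in aleurone at 18 DAP, ordered by their mean level in starchy endosperm, with aleurone in orange, starchy endosperm in blue, circles for replicate 1 and triangles for replicate 2. The tissues stand apart in 17 rows, among them fps1, fl3, gpc3, gpc4 and nac4, and overlap for ndpk1, rps27, Top1 and PBF.

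Regulators of grain filling were among the named genes lower in aleurone. The PLATZ-type factor fl3 (GRMZM2G006585), known from a floury endosperm mutant, had 118 and 77.5 TPM in aleurone and 765 and 455 TPM in starchy endosperm, and the log2 fold change was -4.77, SE 0.44 (adjusted p = 0.00196). The NAC-class gene nac4 (GRMZM2G154182), which the reference also lists under the synonym Asn1, had 103 and 112 TPM against 373 and 487 TPM (log2 fold change -4.08, SE 0.41, adjusted p = 0.00234). It was the 1 called gene of the 13 tested in the NAC list, which was matched by symbol and does not include NRP1. NRP1 (GRMZM2G062650) had 39.8 and 47.5 TPM against 92.4 and 105 TPM (log2 fold change -3.25, SE 0.40, adjusted p = 0.0065). In all of them replicates of a tissue were closer to each other than to the other tissue. The bZIP factor o2, the activator of zein genes, had 77.1 and 90.4 TPM against 149 and 255 TPM (log2 fold change -3.36, SE 0.51, adjusted p = 0.0133), and its partner PBF (GRMZM2G146283) had 59.6 and 29.5 TPM against 66.0 and 55.6 TPM (log2 fold change -2.60, SE 0.53, adjusted p = 0.0443). The TPM ranges of PBF overlapped. Of 7 regulators of endosperm filling tested, o2, fl3 and this PBF gene were lower and 4 did not pass. Among those 4 was a second PBF gene, GRMZM2G146267 (log2 fold change -0.72, adjusted p = 0.717). In TPM both aleurone libraries lay above both starchy endosperm libraries for 3 of the 7 regulators and below them for 2.

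FL1 (GRMZM2G094532), the floury1 protein of the zein body membrane, had 23.4 and 17.0 TPM against 67.1 and 75.7 TPM (log2 fold change -3.94, SE 0.46, adjusted p = 0.00465). The Derlin gene der2 of endoplasmic reticulum quality control had 38.8 and 35.3 TPM against 46.8 and 48.3 TPM (log2 fold change -2.45, SE 0.42, adjusted p = 0.0212), and the disulfide isomerase gene PDIL5-1 (GRMZM2G073628) had 119 and 116 TPM against 162 and 127 TPM (log2 fold change -2.39, SE 0.46, adjusted p = 0.0358). A further gene of that family went the other way: pdi2 had 104 and 95.2 TPM against 3.37 and 5.26 TPM (log2 fold change 2.42, SE 0.50, adjusted p = 0.0494). The folding list of 27 therefore had 1 gene higher, 2 lower and 24 not called, and its median was -0.44. With the replicate block 1 was higher and 5 lower. In TPM the tissues lay apart but close together for GRMZM2G082976 (der2) and GRMZM2G073628 (PDIL5-1). The farnesyl diphosphate synthase gene fps1 (GRMZM2G168681), an enzyme at the branch to sterols, was the most abundant of the named lower genes in starchy endosperm. It had 207 and 128.18 TPM in aleurone and 1024 and 655 TPM in starchy endosperm, and the log2 fold change was -4.52, SE 0.43 (adjusted p = 0.00197). The nucleoredoxin gene nrx1 had 60.3 and 57.7 TPM against 134 and 104 TPM (log2 fold change -3.10, SE 0.41, adjusted p = 0.00793). Bk2L6 (GRMZM2G167520), of the brittle stalk 2-like COBRA family of cell wall proteins, had 5.82 and 8.51 TPM against 42.2 and 114 TPM (log2 fold change -5.32, SE 0.72, adjusted p = 0.00846), and COR413-TM1 had 6.57 and 4.69 TPM against 21.9 and 33.5 TPM (log2 fold change -4.34, SE 0.71, adjusted p = 0.0178).

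The remaining named lower genes included some that every cell uses. The ribosomal protein gene rps27, the 1 called gene of 37 for cytosolic ribosomes and translation, had 555 and 569 TPM in aleurone and 481 and 557 TPM in starchy endosperm, nearly equal and overlapping, and the log2 fold change was -1.96, SE 0.35 (adjusted p = 0.0277). The nucleoside diphosphate kinase gene ndpk1, paired with 3 reference genes, had 418 and 525 TPM against 495 and 803 TPM (adjusted p = 0.0303) and the actin gene Actin-7 had 25.1 and 18.6 TPM against 30.4 and 26.8 TPM (adjusted p = 0.0282). TA1 had 94 and 74.3 TPM against 139.9 and 127 TPM (adjusted p = 0.00777), Top1 had 253 and 129 TPM against 416 and 217 TPM (adjusted p = 0.0303) and GTPase had 20.5 and 13.6 TPM against 70.5 and 38.6 TPM (adjusted p = 0.0367). Scaled by library size alone, 7 of the 21 stayed called: fps1, fl3, gpc3, gpc4, nac4, FL1 and Bk2L6. The 14 others, o2 and PBF among them, kept a negative sign and were not called.

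**Figure D3:**
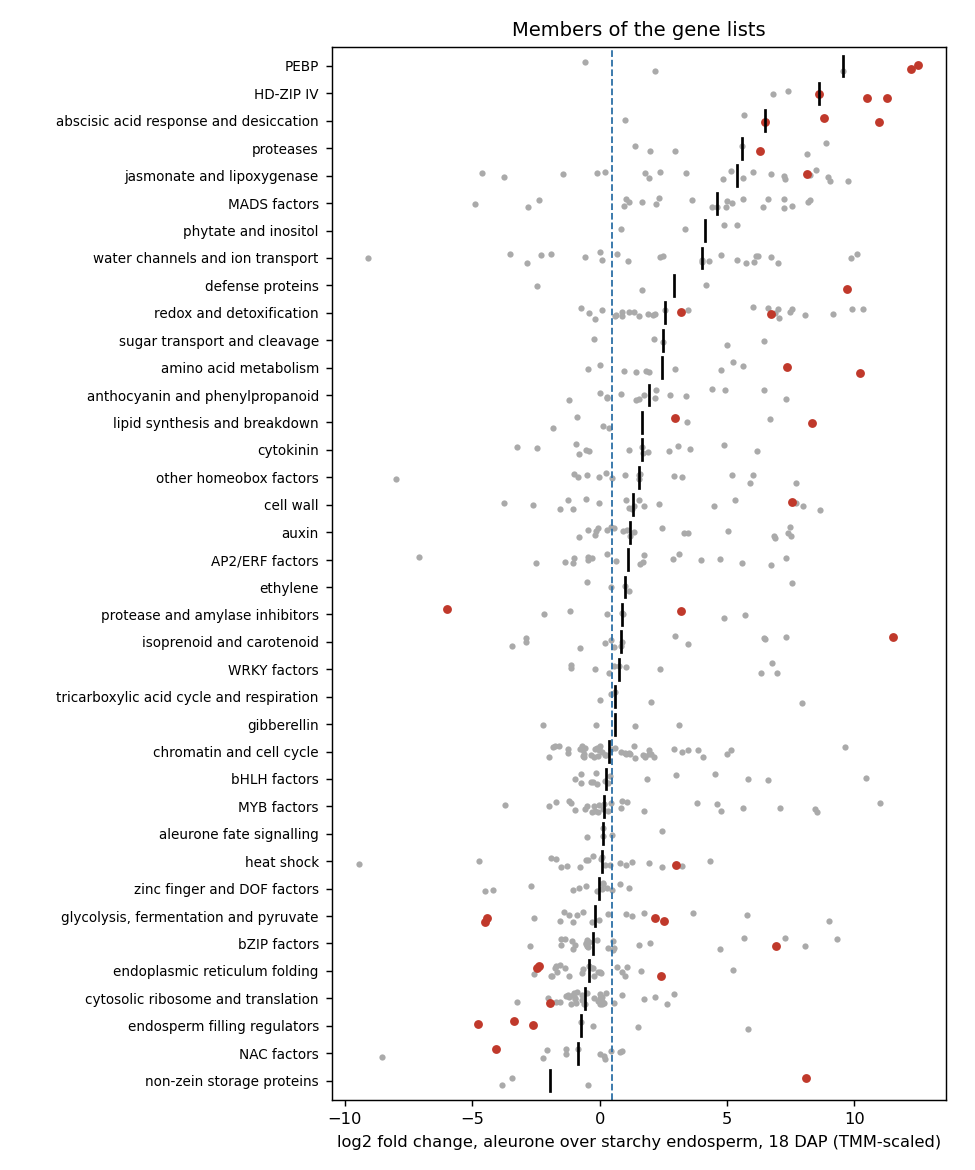
TMM-scaled log2 fold change of aleurone over starchy endosperm at 18 DAP for the tested members of the 38 gene lists with at least 4 of them, 1 point a gene, red where called and grey where not, with the list's median as a black bar. The dashed line is the median of all tested genes, 0.47. The lists run from PEBP and HD-ZIP IV genes (medians 9.56 and 8.61) to non-zein storage proteins (-1.95). Where starchy endosperm had almost no reads, as for HD-ZIP IV genes, the size of a median is not measured.

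Without the replicate block, the lists of aleurone fate and of most transcription factor families held no called gene. None of the 5 genes of the aleurone fate list was called. The calpain gene dek1, without which no aleurone forms, had 50.1 and 32.1 TPM against 16.2 and 9.76 TPM (log2 fold change -0.49, SE 0.69, adjusted p = 0.853), and the receptor kinase gene cr4 had 11.7 and 9.02 TPM against 0.67 and 0.23 TPM (log2 fold change 2.45, SE 1.45, adjusted p = 0.471). The naked endosperm zinc finger genes IDDveg9 and IDD9 were close to 0 in log2 fold change. IDDveg9 had 73.7 and 74.9 TPM against 15.4 and 17.2 TPM (0.12, SE 0.51, adjusted p = 0.971) and IDD9 had 37.2 and 32.4 TPM against 6.14 and 8.73 TPM (0.11, SE 0.62, adjusted p = 0.978). Sal1, an endosomal sorting gene, had 52.5 and 80.9 TPM against 8.85 and 13.9 TPM (adjusted p = 0.882). All 5 had higher TPM in both aleurone libraries, as most tested genes did. The MYB, bHLH, WRKY, AP2/ERF, MADS, zinc finger and DOF, and other homeobox lists, 130 tested genes in 7 lists, held no called gene, and neither did the 5 lists of gibberellin, auxin, cytokinin, ethylene and brassinosteroid genes, with 47 tested. Of these, myb8 (55.3 and 133 TPM against 0, adjusted p = 0.0624) and bHLH168 (26.6 and 44.4 TPM against 0, adjusted p = 0.0592) did not reach the threshold. The 48 chromatin and cell cycle genes and the 25 water channel and ion transport genes had none either, with medians of 0.36 and 4.01. These counts of none come from the edgeR test, by which 24 of the 130 transcription factor genes, 11 of the 47 hormone genes, 0 of the 5 fate genes, 5 of the 48 chromatin genes, 11 of the 25 transport genes, 2 of the 16 phenylpropanoid genes and 2 of the 4 phytate genes had an unadjusted p under 0.05. The DESeq2 Wald test called 16 of the transcription factor genes higher and 3 lower, 6 and 0 of the hormone genes, 2 and 1 of the chromatin genes, 8 and 3 of the transport genes, 1 and 0 of the phenylpropanoid genes and 2 and 0 of the phytate genes. With limma-trend these counts were 6 and 2, 5 and 0, 1 and 0, 5 and 0, 1 and 0, and 2 and 0 in the same order, and neither tool called a fate gene. With the replicate block 1 transcription factor gene was called higher (myb8, adjusted p = 0.0463) and 1 lower (DOF36, adjusted p = 0.0278), 1 hormone gene higher (the gibberellin synthesis gene an1, adjusted p = 0.0114), in the chromatin list 1 higher (his1a) and 1 lower (mez1), and in the transport list 1 higher (tip4d) and 1 lower (pip2e). It called none of the fate, phenylpropanoid and phytate genes. Under library-size scaling 7 list medians turned from negative to positive: glycolysis, endoplasmic reticulum folding, ribosome, endosperm filling regulators, bZIP, NAC, and zinc finger and DOF.

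Most of the called genes, 293 of 395, had no name in the reference table. Some of them were abundant, and 4 are given here. GRMZM2G368861 had 9094 and 15272 TPM in aleurone and 7.30 and 3.53 TPM in starchy endosperm (log2 fold change 8.35, SE 0.89, adjusted p = 0.00286). GRMZM2G011523 had 4470.0 and 12066 TPM against 6.05 and 0.71 TPM (log2 fold change 9.61, SE 1.43, adjusted p = 0.0127). On the starchy endosperm side GRMZM2G071433 had 233 and 184 TPM against 813 and 1066 TPM (log2 fold change -4.28, SE 0.37, adjusted p = 0.00189), and GRMZM2G014705 had 77.0 and 106 TPM against 461 and 1201 TPM (log2 fold change -5.22, SE 0.85, adjusted p = 0.0176). Each library of 18 DAP left out in turn, GRMZM2G071433 stayed called in all 4 fits, GRMZM2G368861 and GRMZM2G011523 lost the call without starchy endosperm replicate 2 (adjusted p = 0.0740 and 0.143), and GRMZM2G014705 lost it without that library (0.130) and without aleurone replicate 2 (0.0538).

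Aleurone replicate 2 stood above replicate 1 for 148 of the 230 higher genes, with a median ratio of 1.30, whereas over the 14714 genes of at least 5 TPM in aleurone the median ratio was 0.771. For the 165 lower genes the ratio of starchy endosperm replicate 2 over replicate 1 had a median of 0.908, beside 0.909 over 6373 genes.

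The libraries of 22 DAP, which are separate samples but share the estimate of the spread, gave the same sign for 394 of the 395 genes, beside 74.9% of all tested genes. At that age 322 genes were called (1.69% of those tested), and 263 genes were called in the same direction at both ages, 66.6% of the calls at 18 DAP and 81.7% of those at 22 DAP. Of the 230 higher genes 174 were called again and of the 165 lower genes 89. All 68 named genes kept their sign, and 37 of the 47 higher and 9 of the 21 lower were called. Among the higher ones asn2 had a log2 fold change of 6.03 at 22 DAP (adjusted p = 0.0188) and vpe1 one of 6.73 (adjusted p = 0.00323). AD1 was called (adjusted p = 0.00823) at 62.4 and 67 TPM in aleurone and 0 in starchy endosperm, so the size of its fold at 22 DAP was not measured. The gene gln5 (adjusted p = 0.0879) and the ZCN10 genes (adjusted p = 0.0874 and 0.109) were not called. Among the lower ones fps1 (-2.81, adjusted p = 0.0129), fl3 (-4.60, adjusted p = 0.00301) and nac4 (-2.90, adjusted p = 0.0104) were called, and o2 (-1.93, adjusted p = 0.101) was not. The difference between the ages was tested as an interaction: by the edgeR quasi-likelihood test no gene was called, and 390 of 19058 had an unadjusted p under 0.05.

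**Figure D4:**
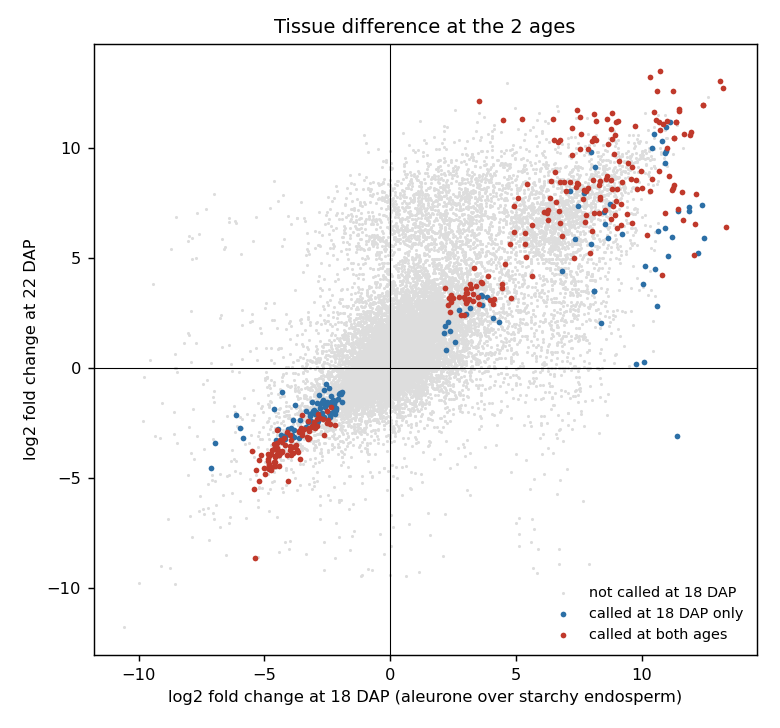
TMM-scaled log2 fold change of aleurone over starchy endosperm at 18 DAP (horizontal) and 22 DAP (vertical) for the 19058 tested genes, with genes not called at 18 DAP in grey, those called at 18 DAP only in blue and those called at both ages in red. The 263 red points lie in the quadrants of equal sign, and 1 of the 395 coloured points lies in a quadrant of opposite sign.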

How the data were processed

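The submitters' processing notes name RSEM 1.2.15, Bowtie2 2.2.3, FastQC, SAMtools and the build B73 RefGen_v3. The annotation and the strand setting were not given in the sources used here. For each gene and library the authors deposited expected counts (RSEM estimates) and TPM, per the file headers. Expected counts were rounded to whole numbers, filtered with filterByExpr, scaled by TMM and fitted with edgeR 4.0.16 (R 4.3.3) as 4 group means over all 8 libraries, and 19058 genes were tested for aleurone minus starchy endosperm at 18 DAP. The analysis was tested on simulated data. TPM describe levels only.

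Members, gene lists and tests were chosen with earlier results of these data known. Of 39475 IDs, 18908 (47.9%) were found in a reference table of Zm-B73-REFERENCE-NAM-5.0 and 2659 had a name; lists were matched on symbols and synonyms, and members matched by name alone to the wrong family were removed, some after their values were seen. Genes were named by rule: the 15 largest changes in each direction whose TPM did not overlap and reached a mean of 20 or more in the higher tissue, the 8 most abundant in each tissue, and up to 4 per list at 5 TPM or more; 17 further named called genes and 4 without a name were added after their values were seen. Where a group had no count, folds are lower bounds against a floor of 3 counts in that group, and 1 to 3 counts give a ratio with an exact 95% binomial interval; both cover counting error only.

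The labels do not say that a replicate number marks a shared plant. Differences between replicates correlated in all 6 pairs of groups (Pearson r across genes from 0.19 to 0.41). Over the 2717 genes of higher mean level r was from 0.38 to 0.77. The numbers were therefore treated as a possible pairing. Replicate 2 was the deeper library in every group, so depth and a shared origin cannot be told apart. The main counts, fold changes and p-values come from the fit without the block and ignore such a pairing. The fit with a replicate block is given for most genes and lists whose call or count it changes. Alternatives were DESeq2 1.42.0 size factors and Wald test, upper-quartile, library-size and zein-free scaling, limma-trend (limma 3.58.1), no filter, the 18 DAP libraries alone, the block, and each library left out; leaving out both starchy endosperm libraries of 22 DAP was added after the data were seen.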

Additional observations from a re-analysis of the deposited data

How the results depend on the processing

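The counts of genes higher and lower in aleurone (230 and 165) depended on the scaling and the spread estimate. They were 347 and 188 with DESeq2 size factors, 283 and 310 with upper-quartile factors, 1281 and 51 with library size only, 220 and 145 with the named zeins left out, 1588 and 633 with the DESeq2 Wald test, 922 and 342 with limma-trend, 825 and 390 without the filter on low counts, 464 and 283 with the 18 DAP libraries only, and 359 and 449 with the replicate block. Leaving out 1 library gave from 11 to 1127 higher and from 36 to 524 lower genes; leaving out both starchy endosperm libraries of 22 DAP, an alternative chosen after seeing the data, gave 1036 and 462. The causes were not tested. Of the 68 named called genes none reversed; 14 lost the call with library size only, 2 each without the zeins, with the 18 DAP libraries only and with the replicate block, and, without 1 library, 12 (aleurone replicate 1), 43 (aleurone replicate 2), 47 (starchy endosperm replicate 1) and 62 (starchy endosperm replicate 2) of 18 DAP and 1 and 8 (aleurone replicates 1 and 2) of 22 DAP. None was lost under the other alternatives. The replicate block lost the calls of me4 and gln5 among them. Of the named genes that were not called, it called 22.

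Each group had 2 libraries, so single libraries decide most calls, and starchy endosperm, dominated by zein reads, had few counts for genes of the aleurone. Absence of a count there does not show absence of expression. A comparison of promoter letters was not run, since no promoter sequences were used here.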
